A study of Saccharomyces cerevisiae with 61 samples.

Results

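The 10 genes RPN4, YAP1, CAD1, CIN5, SKN7, MSN2, MSN4, HSF1, GCN4 and ROX1 encode transcription factors that head the stress programmes of budding yeast, and their transcripts were followed here through replication stress. They were chosen by gene symbol, and all 10 were measured, each by 1 probe, among 5592 named genes and 6249 features on the arrays. RNA from 56 extracts was compared on 61 arrays, each of which sets one extract in Cy5 against another in Cy3, with all cells of strain BY4741 or its derivatives and all released from mating pheromone arrest, a step that lets cells enter the cycle together. The agents were methyl methane sulfonate (MMS) at 0.033%, which alkylates DNA, hydroxyurea (HU) at 0.2 M, which starves forks of nucleotides, and camptothecin (CPT) at 50 µM, which traps topoisomerase I on DNA. Cells lacking the checkpoint kinase gene RAD53 (rad53Δ) were sampled at 30 and 75 min with MMS, with HU or untreated, in 2 replicates. Wild-type cells were sampled at 30, 45, 60 and 75 min with MMS, HU or CPT or untreated, again in 2 replicates, and rad53Δ and wild type each had an untreated 0 min extract in replicate 1. Another untreated set used a strain labelled galsicΔP, which the labels describe no further. In it, cells that lacked the G1/S corepressor gene NRM1 (nrm1Δ) were sampled at 40 and 100 min, and their galsicΔP parent at 0, 40 and 100 min. Each of these had 2 replicates per time.

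As background, yeast divides its stress response among factors with distinct target sets. Yap1 and its relatives Cad1 and Cin5 drive antioxidant and drug export genes, Skn7 works with Yap1 at antioxidant promoters, Rpn4 drives the proteasome subunit genes, Hsf1 the chaperone genes, Msn2 and Msn4 the general stress genes and Gcn4 the amino acid biosynthesis genes, while Rox1 represses hypoxic genes. Most of these proteins are controlled after transcription. Yap1, Msn2 and Msn4 are controlled by their amount in the nucleus, Hsf1 by chaperone binding, Gcn4 by translation and Rpn4 by rapid degradation. A transcript level is therefore not a measure of the factor's activity, and the levels of known target genes are given beside it.

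Values are log2 differences ± SE from limma. Rose, fell and called mean an adjusted p under 0.05, with p-values adjusted over all 6249 features of a comparison. The spread behind an SE is shared, per gene, by the wild-type, rad53Δ and galsicΔP samples together. The arrays held 0 missing values and array medians between -0.0258 and 0.0249, but no intensities, so how bright a probe was on an array is unknown. A base of 2 was assumed for the deposited logarithms. The labels do not say that replicates were separate cultures, so p-values measure only the spread between these samples, and the few arrays limit the precision. NRM1 was lower in nrm1Δ than in parent cells in all 4 pairs, by -3.28 to -5.04 (-4.17 ± 0.19, adjusted p = 5.9e-14). No array compared rad53Δ with wild type, so the loss of RAD53 could not be checked in the same way. Ratios also give no level from which the mating type of the cells could be read.

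In wild-type cells MMS changed 9 of the 10 factor transcripts and HU 6, whereas CPT changed none past the test. Averaged over the 4 times, 7 members rose in MMS and 2 fell (percentages of all features called: 28% higher and 30.2% lower). In HU 5 rose and 1 fell (15.8% and 17.3% of all features). In CPT 0 of 10 passed limma's test, against 2.48% of all features called higher and 3.54% called lower, although 4 members had an unadjusted p under 0.05. The median over the members was 0.50 in MMS, 0.16 in HU and 0.07 in CPT, where the medians of all features were -0.02, 0.00 and 0.00. All agents share the same untreated samples, so their values are set side by side below and compared only through contrasts of their own.

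**Figure D1:**
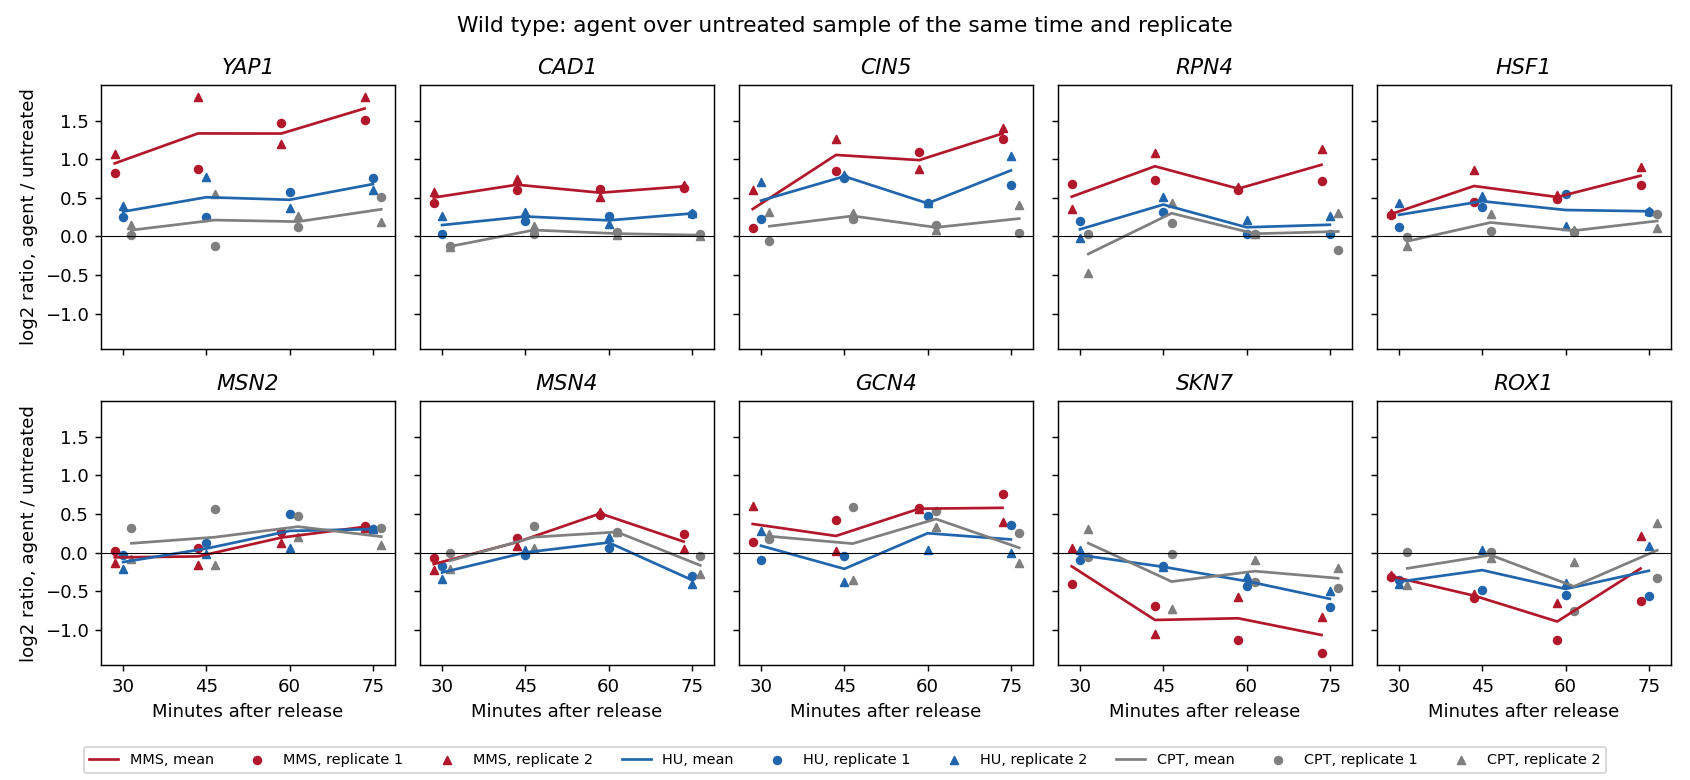
Treated over untreated log2 ratios of the 10 factor genes in wild type, by minutes after release (MMS red, HU blue, CPT grey; circles replicate 1, triangles replicate 2, lines the means of both; points are shifted slightly sideways). YAP1 reaches 1.81 in MMS, all 8 MMS pairs of YAP1, CAD1, CIN5, RPN4, HSF1 and GCN4 lie above 0, and SKN7 falls to -1.30.

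YAP1 (YML007W), the main oxidative stress factor, had the largest rise of the 10 in MMS. Its 8 treated over untreated pairs had a lowest value of 0.83, a median of 1.33 and a highest of 1.81 in MMS. In HU they ran from 0.25 over a median of 0.48 to 0.77, and in CPT from -0.12 over 0.17 to 0.54. Thus every MMS pair lay above every HU pair, and 7 of 8 CPT pairs were above 0. The mean was 2.49-fold in MMS (1.32 ± 0.08, adjusted p = 3.6e-13), with 0.50 ± 0.08 in HU (adjusted p = 2.3e-05) and 0.21 ± 0.08 in CPT (adjusted p = 0.093). MMS exceeded HU by 0.82 ± 0.08 (adjusted p = 5.3e-09) and CPT by 1.11 ± 0.08 (adjusted p = 1.2e-11).

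CAD1 (YDR423C), also known as YAP2 and linked to cadmium tolerance, had the smallest SE of the 10 and rose in MMS and HU. Its MMS pairs lay between 0.43 and 0.74 with a median of 0.61, its HU pairs between 0.03 and 0.32 with a median of 0.26, and its CPT pairs between -0.14 and 0.13 with a median of 0.02. The ranges of the 3 agents overlap between HU and CPT, but MMS stands apart from both. Means were 0.60 ± 0.05 in MMS (adjusted p = 1.1e-10), 0.23 ± 0.05 in HU (adjusted p = 0.00064) and 0.00 ± 0.05 in CPT (adjusted p = 0.99). The HU call ended with 1 value per replicate and agent (adjusted p = 0.095) and without wild-type replicate 2 (0.20, adjusted p = 0.079).

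CIN5 (YOR028C), a Yap family factor linked to salt tolerance, rose in both MMS and HU. Its pairs ran from 0.11 to 1.41 in MMS (median 0.99), from 0.23 to 1.05 in HU (median 0.68) and from -0.06 to 0.41 in CPT (median 0.19), so the MMS and HU ranges overlap widely. The rise was 0.93 ± 0.08 in MMS (adjusted p = 2e-10) and 0.63 ± 0.08 in HU (adjusted p = 1e-06), the largest of the 10 in HU, against 0.19 ± 0.08 in CPT (adjusted p = 0.14). MMS exceeded HU by 0.30 ± 0.08 (adjusted p = 0.003), a call kept in 7 of 10 other settings, over which the difference ran from 0.16 to 0.31. The call was lost without wild-type replicate 1 (0.30) and without replicate 2 (0.31).

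Of the 5 other Yap family genes, 1 rose and 2 fell in MMS, and 1 rose in HU, where 28% of all features rose and 30.2% fell in MMS and 15.8% rose in HU, so these counts are no more than near the background. YAP6 stood at 0.24 ± 0.09 in MMS (adjusted p = 0.027), YAP7 at -0.30 ± 0.10 (adjusted p = 0.011) and ARR1, the arsenic resistance factor, at -0.39 ± 0.12 (adjusted p = 0.0095). In HU YAP5, which responds to iron, stood at 0.21 ± 0.06 (adjusted p = 0.011).

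RPN4 (YDL020C), the proteasome factor, rose in MMS at every time, though the calls at 30 and 60 min were each kept in 7 of 9 other settings. Its MMS pairs lay between 0.35 and 1.14 (median 0.70), its HU pairs between -0.02 and 0.51 (median 0.20) and its CPT pairs between -0.48 and 0.43 (median 0.03). All 8 MMS pairs and 7 of 8 HU pairs were above 0. The mean was 0.74 ± 0.07 in MMS (adjusted p = 4e-09) and 0.19 ± 0.07 in HU (adjusted p = 0.043). The call in HU was lost when wild-type replicate 1 was left out (0.24, adjusted p = 0.14), when replicate 2 was (0.15, adjusted p = 0.37) or with 1 value per replicate and agent (adjusted p = 0.33).

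HSF1 (YGL073W), the heat shock factor, rose in MMS and HU. The pairs ran from 0.27 over a median of 0.51 to 0.90 in MMS, from 0.12 over 0.36 to 0.55 in HU and from -0.12 over 0.08 to 0.29 in CPT. Every MMS and HU pair was positive. The means were 0.56 ± 0.07 in MMS (adjusted p = 1.7e-07), 0.35 ± 0.07 in HU (adjusted p = 0.00033) and 0.10 ± 0.07 in CPT (adjusted p = 0.39). The excess of MMS over HU, 0.21 ± 0.07 (adjusted p = 0.018), was lost without wild-type replicate 2 (0.12, adjusted p = 0.34), with 1 value per replicate and agent (adjusted p = 0.16) and with arrays scaled to equal spread (0.12, adjusted p = 0.28).

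MSN2 (YMR037C) and MSN4 (YKL062W), the paired general stress factors, moved little. MSN2 had medians of 0.10 in MMS, 0.10 in HU and 0.26 in CPT, with pairs of either sign under each agent and means of 0.11 ± 0.07, 0.13 ± 0.07 and 0.22 ± 0.07 (adjusted p = 0.23, 0.19 and 0.072). In CPT its replicates differed, with a mean of 0.42 in replicate 1 and 0.01 in replicate 2. MSN4 pairs ran from -0.22 to 0.53 in MMS (median 0.14), from -0.40 to 0.20 in HU (median -0.10) and from -0.28 to 0.34 in CPT (median 0.03), so each agent had values of both signs. MSN4 rose in MMS by 0.16 ± 0.06 (adjusted p = 0.023), a small call lost in 6 of 10 other settings, among them without wild-type replicate 1 (0.11, adjusted p = 0.37), without replicate 2 (0.21, adjusted p = 0.09) and with 1 value per replicate and agent (adjusted p = 0.19). It stood at -0.12 ± 0.06 in HU (adjusted p = 0.13). MMS exceeded HU by 0.28 ± 0.06 for MSN4 (adjusted p = 0.00053), lost without wild-type replicate 1 (0.24, adjusted p = 0.086) and with 1 value per replicate and agent (adjusted p = 0.058).

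GCN4 (YEL009C), the amino acid control factor, rose in MMS. Its pairs ran from 0.02 to 0.76 in MMS (median 0.49), from -0.38 to 0.48 in HU (median 0.01) and from -0.35 to 0.59 in CPT (median 0.25). All 8 MMS pairs were positive, while HU pairs split 4 to 4. The mean was 0.44 ± 0.08 in MMS (adjusted p = 4.2e-05), 0.08 ± 0.08 in HU (adjusted p = 0.5) and 0.21 ± 0.08 in CPT (adjusted p = 0.1). In CPT the mean was 0.39 in replicate 1 and 0.02 in replicate 2.

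SKN7 (YHR206W), the partner of Yap1 at antioxidant genes and a receiver of the Sln1 phosphorelay, fell in MMS. Its MMS pairs ran from -1.30 over a median of -0.76 to 0.06, its HU pairs from -0.71 over -0.25 to 0.04 and its CPT pairs from -0.72 over -0.15 to 0.30. Under each agent 7 of 8 pairs were negative, and the ranges overlap. The mean was -0.74 ± 0.15 in MMS (adjusted p = 0.00011), -0.29 ± 0.15 in HU (adjusted p = 0.13) and -0.20 ± 0.15 in CPT (adjusted p = 0.4). The MMS call ended without wild-type replicate 1 (-0.60, adjusted p = 0.083), and the HU value passed in a fit of the wild-type set alone (adjusted p = 0.017). SKN7 had the largest SE of the 10. The spread behind it is not that of wild type alone, as it includes the galsicΔP samples, where SKN7 pairs differed by array loop (given below).

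ROX1 (YPR065W), the hypoxic repressor, fell in MMS and HU. The pairs ran from -1.13 over a median of -0.56 to 0.21 in MMS, from -0.56 over -0.40 to 0.09 in HU and from -0.75 over -0.10 to 0.39 in CPT. Of 8 pairs 7 were negative in MMS, 6 in HU and 5 in CPT. The mean was -0.49 ± 0.09 in MMS (adjusted p = 3.7e-05), -0.33 ± 0.09 in HU (adjusted p = 0.0054) and -0.16 ± 0.09 in CPT (adjusted p = 0.27). In HU replicate 1 averaged -0.48 and replicate 2 -0.17, and the call was lost in 5 of 10 other settings, among them without replicate 1 (adjusted p = 0.2), with 1 value per replicate and agent (adjusted p = 0.086) and with arrays scaled to equal spread (-0.22, adjusted p = 0.14). In MMS replicate 1 averaged -0.66 and replicate 2 -0.31, and the call was kept without either.

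The number of members called in MMS rose up to 60 min and was lower at 75 min. At 30 min 3 of 10 members passed, YAP1 (0.95 ± 0.15, adjusted p = 0.00016), CAD1 (0.50 ± 0.10, adjusted p = 0.00086) and RPN4 (0.51 ± 0.15, adjusted p = 0.022), where 11.2% of all features passed. At 45 min 7 members passed (28.8% of features), with CIN5 at 1.06 ± 0.15, HSF1 at 0.65 ± 0.14, SKN7 at -0.87 ± 0.29 and ROX1 at -0.56 ± 0.18 joining the first 3. At 60 min it was 9 (37.1%), all but MSN2, with MSN4 at 0.51 ± 0.12 (adjusted p = 0.0014) and GCN4 at 0.57 ± 0.16 (adjusted p = 0.006). At 75 min it was 7 (42.2%), without MSN4 (0.14 ± 0.12) and ROX1 (-0.21 ± 0.18). The share of all features called rose at each time up to 75 min. Without wild-type replicate 1 or without replicate 2, the calls of RPN4 and CAD1 at 30 min, of SKN7 at each later time and of HSF1 and MSN4 at 60 min were among those lost (adjusted p = 0.064 to 0.5).

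In HU the count was 0 at 30 min (0.288% of all features; 4 members with an unadjusted p under 0.05), 1 at 45 min (5.5%), 1 at 60 min (11.8%) and 4 at 75 min (19.7%). The call at 45 min was CIN5 at 0.78 ± 0.15 (adjusted p = 0.0034), and that at 60 min YAP1 at 0.47 ± 0.15 (adjusted p = 0.044). At 75 min CIN5 (0.85 ± 0.15), YAP1 (0.68 ± 0.15) and CAD1 (0.30 ± 0.10) were higher and MSN4 was lower (-0.35 ± 0.12, adjusted p = 0.035). Of these HU calls YAP1 at 75 min alone was kept both without wild-type replicate 1 and without replicate 2. In CPT no member passed at 30, 45, 60 or 75 min, where 0%, 0%, 0.416% and 0.928% of all features did, and 0, 0, 4 and 1 members had an unadjusted p under 0.05.

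The change of an effect over the course was tested as the effect at 60 and 75 min minus that at 30 and 45 min. In MMS CIN5 gained 0.46 ± 0.15 (adjusted p = 0.042), the only member of 10 called where 17.2% of all features were. It ended without wild-type replicate 1 (0.21, adjusted p = 0.69) and without replicate 2 (0.70, adjusted p = 0.069). MSN4 (0.33 ± 0.12, adjusted p = 0.054) and YAP1 (0.35 ± 0.15, adjusted p = 0.12) stood just outside the threshold or further. In HU 0 of 10 passed (3.44% of features, 1 member with an unadjusted p under 0.05), and in CPT likewise 0 (0.128%, 0 members).

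Between agents, MMS exceeded HU for 7 members and lay below it for 1 (20.5% of all features higher, 20.7% lower). The members higher in MMS were YAP1, RPN4 (0.55 ± 0.07), CAD1 (0.37 ± 0.05), GCN4 (0.36 ± 0.08), CIN5, MSN4 and HSF1, and the lower one was SKN7 (-0.45 ± 0.15, adjusted p = 0.017), which was lost without wild-type replicate 1 (adjusted p = 0.34), without replicate 2 (adjusted p = 0.15) and with 1 value per replicate and agent (adjusted p = 0.13). ROX1 stood at -0.16 ± 0.09 (adjusted p = 0.14) and MSN2 at -0.02 ± 0.07 (adjusted p = 0.82). MMS exceeded CPT for 6 members, YAP1, CIN5 (0.75 ± 0.08), RPN4 (0.70 ± 0.07), CAD1 (0.59 ± 0.05), HSF1 (0.46 ± 0.07) and GCN4 (0.23 ± 0.08), and lay below it for 2, SKN7 (-0.54 ± 0.15) and ROX1 (-0.33 ± 0.09), where 27.3% of features were higher and 29.3% lower. The GCN4 value was 0.08 without wild-type replicate 2 (adjusted p = 0.37) and also missed the threshold with 1 value per replicate and agent (adjusted p = 0.11), and the SKN7 call ended without replicate 1 (-0.42, adjusted p = 0.24) and without replicate 2 (-0.65, adjusted p = 0.055). HU exceeded CPT for 4 members (14.9% of features), CIN5 (0.44 ± 0.08), YAP1 (0.29 ± 0.08), HSF1 (0.25 ± 0.07) and CAD1 (0.23 ± 0.05), and lay below it for 1 (15.8%), MSN4 (-0.17 ± 0.06, adjusted p = 0.032). With 1 value per replicate and agent, CIN5 was the only member still called between HU and CPT.

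Genes of the cell cycle moved with these comparisons. Of 12 measured CLB2 cluster genes, transcribed before mitosis, 0 fell in rad53Δ MMS (median -0.44) and 12 in wild-type MMS (median -1.22). In HU, 2 fell in rad53Δ (median -0.74) and 11 in wild type (median -1.03), and in wild-type CPT 1 fell (median -0.16). Among all features, 4.78% fell in MMS in rad53Δ and 30.2% in wild type. In HU 3.18% and 17.3% did, and in wild-type CPT 3.54%. These counts do not compare the strains, since rad53Δ had fewer pairs and times. The direct test of the strain difference called SWI5, CDC5, CDC20 and IQG1 in MMS, and no cluster gene in HU. For these genes the MMS effect was higher in rad53Δ by 0.92 to 1.60. In RNA from whole cultures, a change in the share of cells at a cycle stage and a change of RNA per cell cannot be told apart, and the part of cycle stage in the values of the factor genes was not tested.

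Courses relative to the 0 min extract could be followed in replicate 1 alone, and are described without a test. All values of a strain are set against its single 0 min extract, so an error in that extract would shift all of them alike. ROX1 stood out. With MMS it was 1.49, 1.43, 0.81 and 0.99 above 0 min in wild type at 30, 45, 60 and 75 min, with HU 1.45, 1.53, 1.39 and 1.05, and untreated 1.80, 2.01, 1.94 and 1.61, so it was above its 0 min level in all of these extracts. Untreated ROX1 at the shared times of 30 and 75 min was -0.66 and -0.08 in rad53Δ, against 1.80 and 1.61 in wild type. Untreated CIN5 was 0.65, 0.16, 0.57 and 0.70 above 0 min in wild type, and GCN4 declined over the course (0.20, -0.25, -0.34 and -0.57). In wild type, untreated RPN4, YAP1, CAD1 and HSF1 stayed between -0.31 and 0.18 of the 0 min extract at all 4 times. In untreated rad53Δ at 30 and 75 min, RPN4 was at 0.01 and 0.52 and YAP1 at -0.19 and 0.27. CAD1 was at -0.34 and -0.23 there, and HSF1 at -0.26 and 0.08.

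Most listed target genes of Yap1, Rpn4, Hsf1 and Gcn4 rose in MMS, as did the genes of these factors. CAD1, CIN5 and SKN7 had no target list of their own. The lists below were assembled from textbook knowledge, with earlier results of these data known, and are described by counts and medians. Beside these counts, 28% of all features rose and 30.2% fell in MMS, 15.8% and 17.3% in HU, and 2.48% and 3.54% in CPT. All 14 listed Yap1 targets rose in MMS (median 1.66) and 12 in HU (median 0.71), while 3 rose in CPT (median 0.17). The largest MMS values were the drug exporter gene FLR1 at 4.03 ± 0.14 and the sulfiredoxin gene SRX1 at 3.90 ± 0.20, and in HU SRX1 at 1.38 ± 0.20 and the peroxidase gene GPX2 at 1.18 ± 0.11. All 33 proteasome subunit genes rose in MMS (median 1.1) and 26 in HU (median 0.34), with the ATPase subunit gene RPT2 at 1.55 ± 0.07 and the core subunit gene PRE3 at 1.43 ± 0.07 in MMS. In CPT 0 rose and 1, PUP2, fell (-0.42 ± 0.12).

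Of 22 chaperone genes under Hsf1, 19 rose in MMS (median 0.70), 13 in HU (median 0.37) and 2 in CPT (median 0.06). The mitochondrial disaggregase gene HSP78 was highest in both, at 1.80 ± 0.08 in MMS and 1.02 ± 0.08 in HU. General stress genes rose although MSN2 and MSN4 moved little. Of 26 such genes 24 rose in MMS (median 0.89), 21 in HU (median 0.75) and 4 in CPT (median 0.17), with DDR2 at 2.17 ± 0.13 in MMS, 1.81 ± 0.13 in HU and 0.96 ± 0.13 in CPT. Of 33 measured amino acid genes under Gcn4, 25 rose and 3 fell in MMS (median 0.65), while 5 rose and 3 fell in HU (median 0.05). The arginine genes ARG1 and ARG3 were highest in MMS, at 2.66 ± 0.14 and 2.23 ± 0.10.

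The 6 hypoxic genes that Rox1 represses split, as 2 rose and 4 fell in MMS (median -0.59), and 2 rose and 2 fell in HU (median 0.05). The fatty acid desaturase gene OLE1 stood at -1.98 ± 0.14 and ANB1, a translation factor gene, at -1.14 ± 0.08 in MMS, the same direction as ROX1 itself. In HU the cytochrome c isoform gene CYC7 stood at 0.65 ± 0.09 and OLE1 at -0.62 ± 0.14.

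**Figure D2:**
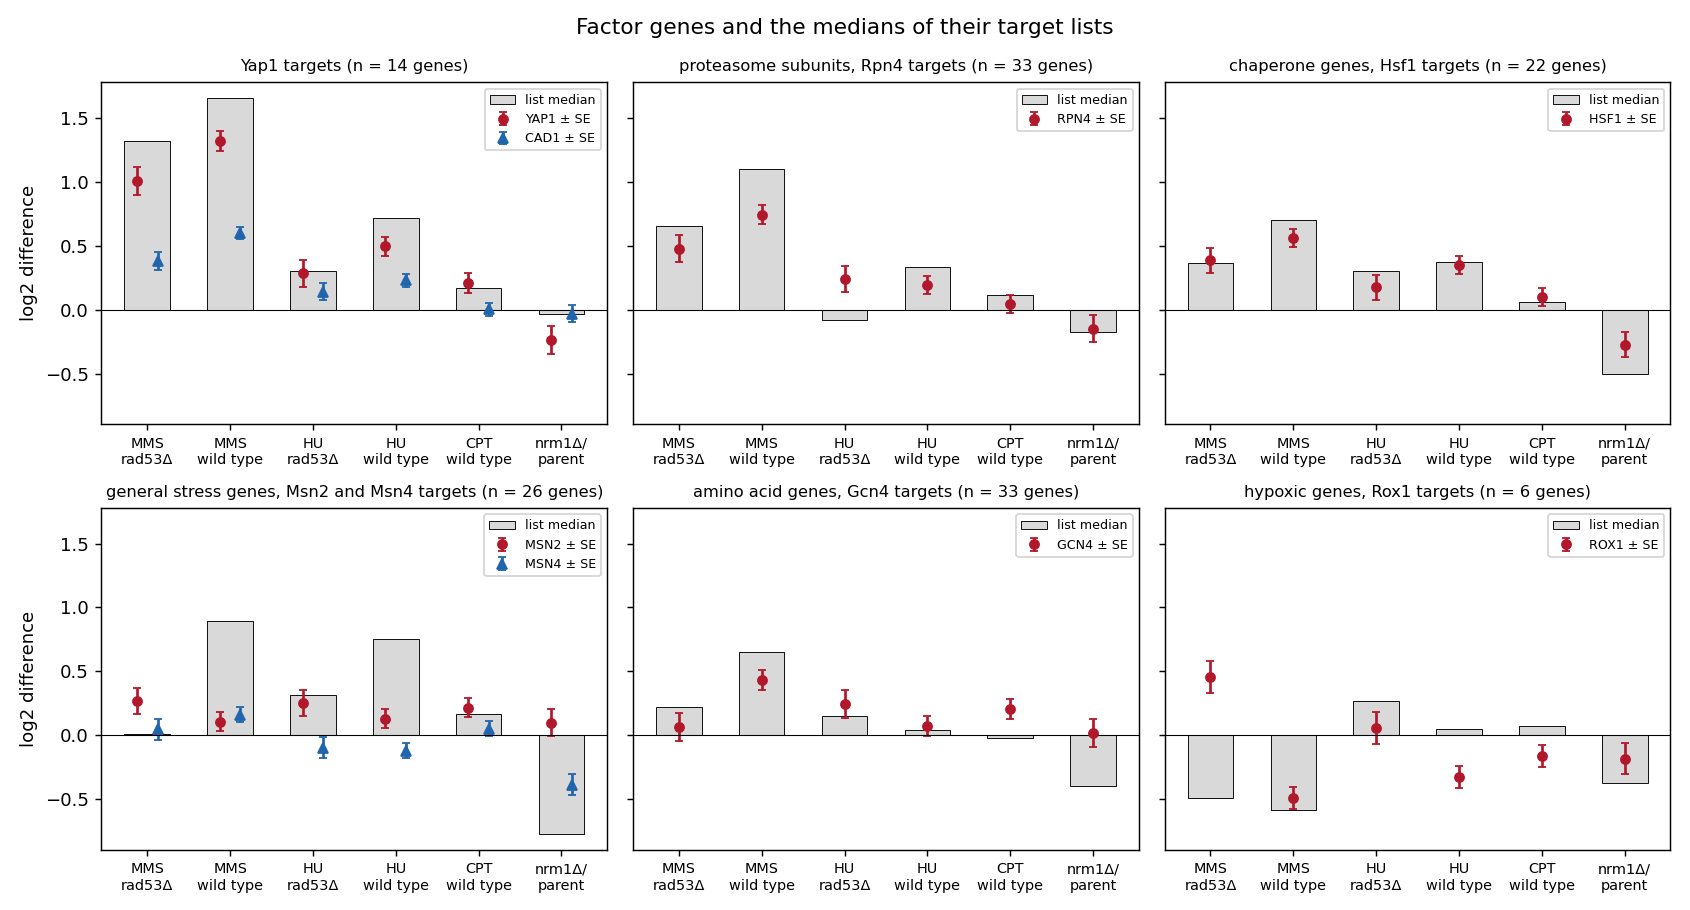
Log2 differences of the factor genes (points ± SE) over the medians of their listed target genes (bars), for MMS and HU over untreated in rad53Δ (30 and 75 min) and wild type (30 to 75 min), CPT in wild type, and nrm1Δ over its parent. General stress genes have a median of 0.89 in wild-type MMS, where MSN2 and MSN4 are at 0.11 and 0.16, and of 0.01 in rad53Δ MMS.

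Known regulators of the factors were also read, where 28% of all features rose and 30.2% fell in MMS, and 15.8% rose and 17.3% fell in HU. With so few genes per list, calls are given gene by gene and not as a result about a list. Of the 4 listed for Rpn4, PDR1, an activator of the RPN4 gene, rose in MMS (0.53 ± 0.06), as did UBR2 and MUB1, whose products target Rpn4 for degradation (0.42 ± 0.09 and 0.20 ± 0.05), while the activator gene PDR3 fell (-0.43 ± 0.08 in MMS and -0.24 ± 0.08 in HU). Of the 3 for Yap1, the peroxide sensor gene HYR1 rose in MMS and HU (0.45 ± 0.08 and 0.44 ± 0.08) and its partner gene YBP1 in MMS (0.39 ± 0.05). Of the 3 phosphorelay genes above Skn7, the sensor kinase gene SLN1 fell in MMS (-0.57 ± 0.09) and the response regulator gene SSK1 rose in HU (0.24 ± 0.07).

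Of 9 measured regulators of Msn2 and Msn4, 4 rose and 1 fell in MMS, and 2 rose and 1 fell in HU, where 28% of all features rose and 30.2% fell in MMS, and 15.8% rose and 17.3% fell in HU, so the share of these regulators called in either direction was near that of all features. The protein kinase A genes TPK2 (0.42 ± 0.07) and BCY1 (0.40 ± 0.16), the kinase gene YAK1 (0.25 ± 0.08) and WHI2 (0.19 ± 0.05) were higher in MMS and the phosphodiesterase gene PDE2 was lower (-0.28 ± 0.07). In HU TPK2 (0.23 ± 0.07) and YAK1 (0.27 ± 0.08) were higher and WHI2 was lower (-0.18 ± 0.05). Of the 6 for Gcn4, PCL5 and PHO85, whose products form the kinase that marks Gcn4 for degradation, rose in MMS (1.04 ± 0.14 and 0.60 ± 0.08), PCL5 in HU too (0.96 ± 0.14). The translation regulators GCN20 (0.22 ± 0.06) and GCN3 (0.20 ± 0.06) rose and GCN1 fell (-0.32 ± 0.14, adjusted p = 0.048) in MMS. All 4 regulators and corepressors listed for Rox1 fell in MMS: MOT3 (-0.67 ± 0.07), HAP1, an activator of ROX1 (-0.55 ± 0.07), TUP1 (-0.52 ± 0.14) and CYC8 (-0.48 ± 0.08). In HU HAP1 alone of these fell (-0.32 ± 0.07).

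In rad53Δ cells the effects of the agents were read at 30 and 75 min to ask which need the checkpoint kinase. In MMS 5 members rose and 0 fell (8.59% of all features higher, 4.78% lower). YAP1 pairs were 0.64 and 0.71 at 30 min and 1.31 and 1.36 at 75 min (1.01 ± 0.11, adjusted p = 3.2e-07), all positive and higher at the later time. RPN4 was at 0.48 ± 0.10 (adjusted p = 0.0023), HSF1 at 0.39 ± 0.10 (adjusted p = 0.0081), CAD1 at 0.38 ± 0.07 (adjusted p = 0.00033) and ROX1 at 0.46 ± 0.12 (adjusted p = 0.013). Leaving out rad53Δ replicate 1 ended the calls of CAD1 (adjusted p = 0.051), HSF1 (adjusted p = 0.34) and ROX1 (adjusted p = 0.21), and leaving out replicate 2 those of RPN4 (0.29, adjusted p = 0.46), HSF1 (adjusted p = 0.12) and ROX1 (adjusted p = 0.38). In HU 0 of 10 passed limma's test (3.97% of features higher, 3.18% lower), though 5 members had an unadjusted p under 0.05. A fit of the rad53Δ set alone called 4 members higher in HU, YAP1 (0.28, adjusted p = 0.0039), MSN2 (0.25, adjusted p = 0.024), GCN4 (0.24, adjusted p = 0.029) and RPN4 (0.24, adjusted p = 0.047).

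The difference of the MMS effect between rad53Δ and wild type at these shared times was called for 2 members, 1 higher (3.92% of all features) and 1 lower (3.44%). CIN5 pairs in MMS were 0.14, 0.11, -0.36 and -0.20 in rad53Δ, against 0.11, 0.60, 1.26 and 1.41 in wild type, in each case 30 min before 75 min. At 75 min both rad53Δ pairs lay far below both wild-type pairs, while at 30 min the strains overlapped. The mean was -0.08 in rad53Δ and 0.84 in wild type, a difference of -0.92 ± 0.15 (adjusted p = 0.00061) that was called under all 11 other settings.

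ROX1 pairs in MMS were 0.79, 0.87, 0.04 and 0.13 in rad53Δ, against -0.31, -0.29, -0.62 and 0.21 in wild type. The strains were apart at 30 min and overlapped at 75 min. Means were 0.46 in rad53Δ and -0.25 in wild type, which differ by 0.71 ± 0.18 (adjusted p = 0.013). This call ended without wild-type replicate 1 (0.50, adjusted p = 0.063), without rad53Δ replicate 1 (0.75, adjusted p = 0.17) and without rad53Δ replicate 2 (0.67, adjusted p = 0.18). Untreated ROX1 in replicate 1 also differed between the strains relative to the single 0 min extract of each, as given above.

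For HU, 1 member was called lower in rad53Δ than in wild type (1.39% of features) and 0 higher (1.41%). CIN5 pairs in HU were 0.10, 0.07, -0.15 and 0.16 in rad53Δ, against 0.23, 0.70, 0.66 and 1.05 in wild type, so the strains did not overlap. The means of 0.05 in rad53Δ and 0.66 in wild type differ by -0.61 ± 0.15 (adjusted p = 0.031), a call that ended in each of the 4 fits that left out a replicate (-0.40 to -0.83, adjusted p = 0.06 to 0.35) and with 1 value per replicate and agent (adjusted p = 0.1). The other 8 members were called for neither agent. YAP1 differed by -0.29 ± 0.15 in MMS (adjusted p = 0.29) and -0.22 ± 0.15 in HU (adjusted p = 0.58), and GCN4 by -0.41 ± 0.16 in MMS (adjusted p = 0.12). These p-values do not show that the effects were alike.

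**Figure D3:**
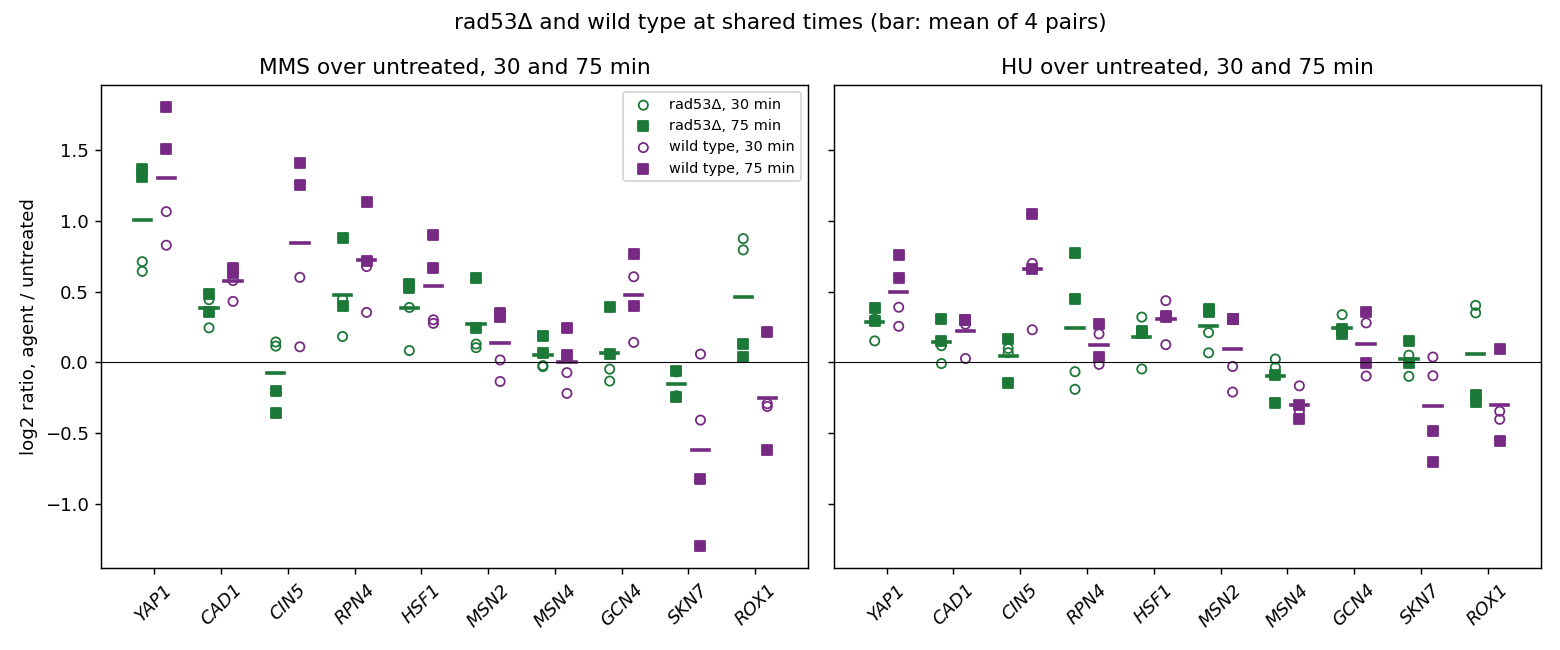
Agent over untreated log2 ratios in rad53Δ (green) and wild type (purple) at 30 min (open circles) and 75 min (filled squares), with bars at the mean of 4 pairs, for MMS and HU. CIN5 has means of -0.08 in rad53Δ and 0.84 in wild type under MMS, and ROX1 means of 0.46 in rad53Δ and -0.25 in wild type.

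The target lists were also read in rad53Δ, with no test between lists. Among all features, 8.59% rose and 4.78% fell in rad53Δ MMS, and 3.97% rose and 3.18% fell in rad53Δ HU. The strain difference was called lower for 3.44% and higher for 3.92% of all features in MMS, and lower for 1.39% in HU. In MMS all 14 Yap1 targets rose (median 1.32), as did 31 of 33 proteasome genes (median 0.65), 11 of 22 chaperone genes (median 0.37) and 12 of 33 amino acid genes (median 0.22), with the lysine gene LYS20 at 1.19 ± 0.21. Of 6 hypoxic genes 0 rose and 3 fell (median -0.49). Of 26 general stress genes 2 rose and 1 fell (median 0.01), and for 20 the MMS effect was lower in rad53Δ than in wild type (median difference -1.11), with DDR2 at -2.79 ± 0.26 and PGM2 at -1.95 ± 0.21. The same difference was called lower for 5 Yap1 targets (median -0.48), 8 proteasome genes (median -0.32), 3 chaperone genes (median -0.21) and 6 amino acid genes (median -0.30), and higher for 0 in each of these lists. In HU 0 proteasome genes rose in rad53Δ and 1, PUP3, fell (-0.40 ± 0.09), and 3 Yap1 targets (median 0.30) and 3 chaperone genes (median 0.31) rose, with the peroxiredoxin gene TSA1 at 0.63 ± 0.12 and the chaperone gene SSA4 at 0.80 ± 0.19. Of general stress genes 4 rose and 1 fell in rad53Δ HU (median 0.31), with the glycerol phosphatase gene GPP2 at 1.13 ± 0.12 and YGP1 at -1.04 ± 0.25. For 7 of them the HU effect was lower in rad53Δ than in wild type (median difference -0.59), with YGP1 at -1.54 ± 0.35 and DDR2 at -1.50 ± 0.26. Of the hypoxic genes 2 rose and 1 fell in rad53Δ HU, and 0 amino acid genes passed. MSN2 and MSN4 themselves stood at 0.27 ± 0.10 and 0.05 ± 0.08 in rad53Δ MMS (adjusted p = 0.092 and 0.79). Of the regulators, PDR1 (0.33 ± 0.08) and YBP1 (0.32 ± 0.07) rose and HAP1 fell (-0.31 ± 0.10) in rad53Δ MMS, and HYR1 rose (0.48 ± 0.11) and SLN1 fell (-0.42 ± 0.13) in rad53Δ HU. The MMS effect on PCL5 was lower in rad53Δ than in wild type (-1.02 ± 0.28, adjusted p = 0.029).

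In the untreated galsicΔP strain, loss of NRM1 went with a lower level of CIN5. Over 40 and 100 min 3 members were lower in nrm1Δ than in its parent and 0 higher (17.2% of all features lower, 14.5% higher). The nrm1Δ over parent pairs of CIN5 were -0.92 and -1.17 at 40 min and -1.37 and -1.24 at 100 min, all 4 well below 0 in both array loops (-1.18 ± 0.11, adjusted p = 1.6e-08). MSN4 pairs were -0.62, -0.30, -0.45 and -0.17 in the same order (-0.39 ± 0.08, adjusted p = 0.001). HSF1 pairs were -0.55, -0.09, -0.31 and -0.15 (-0.28 ± 0.10, adjusted p = 0.032). For MSN4 and HSF1 the first loop held the lower pair at both times, and without it neither passed (-0.23, adjusted p = 0.084 and -0.12, adjusted p = 0.6). Scaling arrays to equal spread ended both calls as well (-0.21, adjusted p = 0.092 and -0.09, adjusted p = 0.77). With 1 value per loop and strain the HSF1 call ended (adjusted p = 0.055), whereas CIN5 was called in all 10 other settings.

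The first loop joins nrm1Δ and parent extracts only through the 0 min extracts, while the second sets them on the same arrays. GAL1, a galactose-induced gene read after these values were seen, moved with the first loop. Its nrm1Δ over parent pairs were -2.00 and -1.83 in the first loop at 40 and 100 min, and -0.52 and 0.14 in the second. The part of this difference in the values of CIN5, MSN4 and HSF1 was not tested. For CIN5 the mean over both times was -1.15 in the first loop and -1.21 in the second. SKN7 pairs split by loop, at -1.08 and -0.38 in the first and 0.22 and 0.51 in the second (-0.18 ± 0.21, adjusted p = 0.56). General stress genes were lower in nrm1Δ in 20 of 26 cases (median -0.77), chaperone genes in 16 of 22 (median -0.50) and amino acid genes in 19 of 33, with 4 higher (median -0.40). The Yap1 targets GSH1, GLR1, AHP1 and CCP1 were lower (-0.38 to -0.71). Of the hypoxic genes, HEM13 (-0.48), COX5B (-0.92) and CYC7 (-2.00) were lower and OLE1 was higher (0.69). These counts and values pool both loops, and the lists were not read by loop. Among all features, 17.2% were lower and 14.5% higher. GPH1, the glycogen phosphorylase gene, stood at -2.40 ± 0.22, HSP104, a disaggregase gene, at -1.26 ± 0.14 and ARG1 at -1.62 ± 0.20. Among the regulators, 3 of 9 were lower and 1 higher for Msn2 and Msn4, 3 of 6 lower for Gcn4, 1 of 4 each for Rpn4 and Rox1, and 1 of 3 each for Yap1 and the phosphorelay, beside the 17.2% of all features lower. The lower ones were YAK1 at -0.88 ± 0.12, GCN1 at -0.68 ± 0.19, HYR1 at -0.53 ± 0.11, TPK2 at -0.46 ± 0.10, HAP1 at -0.39 ± 0.10, PHO85 at -0.35 ± 0.11, GCN20 at -0.34 ± 0.09, SSK1 at -0.32 ± 0.10, RIM15 at -0.29 ± 0.11 and MUB1 at -0.21 ± 0.07, and PDE2 was higher (0.46 ± 0.10).

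**Figure D4:**
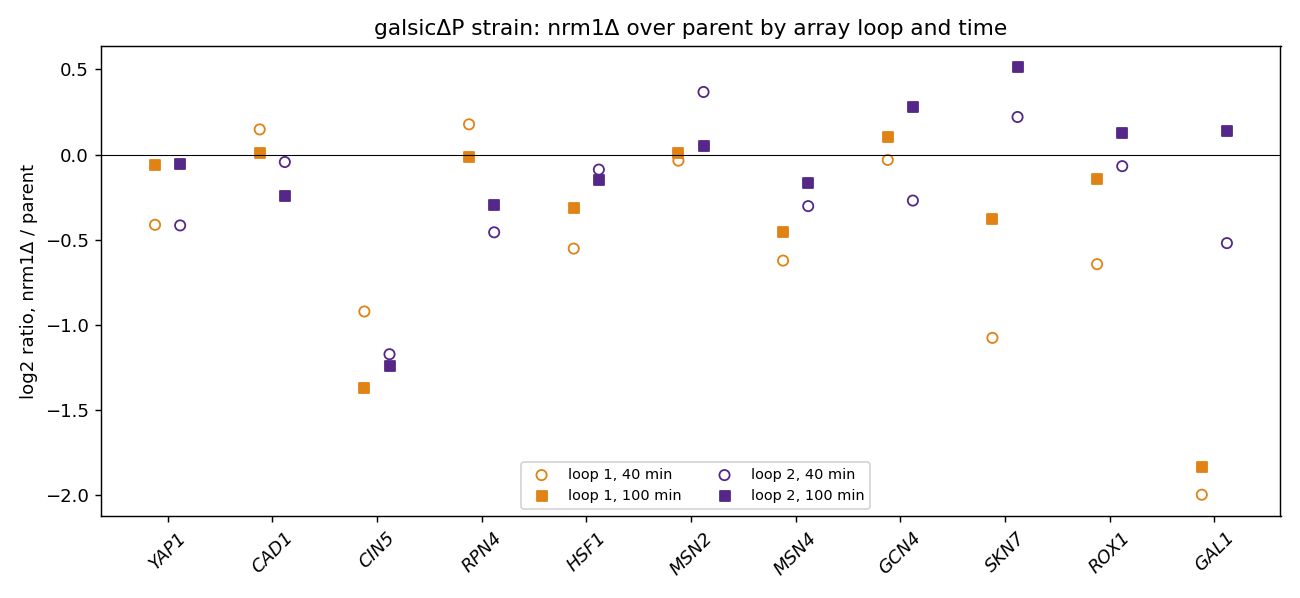
Log2 ratios of nrm1Δ over its galsicΔP parent for the 10 factor genes and GAL1, by array loop (orange first, purple second) and time (open circles 40 min, filled squares 100 min). All 4 CIN5 pairs lie between -0.92 and -1.37, while GAL1 is at -2.00 and -1.83 in the first loop and -0.52 and 0.14 in the second.

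In the galsicΔP parent itself most features changed between 0 and 40 min, several factors among them. At 40 min against 0 min 6 members were called, where 57.3% of all features were, so this count is near the background. CIN5 was higher by 2.05 ± 0.16 (adjusted p = 7.8e-11) and MSN4 by 0.55 ± 0.13 (adjusted p = 0.00057), and RPN4 (-1.89 ± 0.15, adjusted p = 1.3e-10), YAP1 (-1.23 ± 0.16), HSF1 (-0.80 ± 0.15) and CAD1 (-0.55 ± 0.10) were lower. Of the 33 proteasome genes 25 were lower too (median -0.57), and GAL1 was higher by 8.0 ± 0.41. With arrays scaled to equal spread, which shrinks the wide arrays of this set, only CIN5 (0.80) and RPN4 (-0.63) were still called, and the step rests on the first loop, since both 0 min extracts lie there. The 0 min extracts differed between themselves by up to -1.34 among the members (SKN7, second minus first), and by -1.63 for GAL1. At 100 min against 40 min HSF1 was the only member called (-0.37 ± 0.14, adjusted p = 0.044, where 27.9% of features were), and it ended without either loop (adjusted p = 0.17 and 0.28).

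Across the 24 treated over untreated pairs of wild type, YAP1, CAD1, HSF1, RPN4 and CIN5 moved together (Pearson r from 0.71 to 0.93). The remaining members formed no such set, with the highest r for MSN2 and GCN4 (0.50). This is a description, since pairs of 1 time share their untreated extract. YAP1 and CAD1 had the highest correlation (Pearson r = 0.93), followed by YAP1 with HSF1 (0.87), while SKN7 ran against YAP1 (-0.77). The 3 named genes most like each member were read over the same 24 pairs. For YAP1 they were PRE10 (r = 0.97), a proteasome subunit gene, DDI1 (0.96), a ubiquitin-linked protease gene, and NPL4 (0.96), which serves the proteasome pathway. For RPN4 they were SRX1, LTO1 and YTH1 (0.92 each), for CAD1 FMP23 (0.95), the sulfite pump gene SSU1 (0.94) and the proteasome gene RPN12 (0.94), and for HSF1 the cochaperone gene STI1 (0.91), the proteasome gene PRE6 (0.90) and the small heat shock gene HSP42 (0.88). For CIN5 they were GGA1 (0.93), UGX2 (0.93) and NVJ1 (0.93), and for SKN7 URB1 (0.95), UBP13 (0.94) and MOT1 (0.92). MSN2 was most like ESP1 (0.87), CIN8 (0.87) and KTR6 (0.85), and GCN4 most like OCH1 (0.92), IPL1 (0.88) and YPP1 (0.86). The weakest likeness was that of ROX1 to MCO14 (0.82), BSC1 (0.80) and YCL068C (0.79), and of MSN4 to GIS1 (0.73), TAF5 (0.71) and VPS33 (0.70).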

How the data were processed

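Total RNA was measured on two-colour arrays joined in loops without a common reference. Per the labels, averaged scan files lie behind the deposited values, taken here as log2 ratios of Cy5 over Cy3 (base assumed). The submitters' processing notes name limma. How background was corrected and arrays were normalised is not given. Where labels disagreed, title or source name was used (2 wild-type, 6 galsicΔP arrays and 1 rad53Δ array). Probes of 1 gene were averaged. Least squares with a dye term turned array ratios into extract levels within each strain set. A second fit with limma (version 3.58.1, R version 4.3.3) took 54 extracts, without the lone 0 min extracts of wild type and rad53Δ, with group terms and 14 blocks (replicate and time, or loop), leaving 20 residual degrees of freedom. Moderated tests were 2-sided, adjusted by Benjamini-Hochberg, threshold 0.05. Means over times treat the times of a replicate as separate samples, and their SE can be too small. On simulated data with array noise, false calls ran somewhat above the nominal share. Replicate numbers pair the treated and untreated extracts of a time, and the blocks carry that pairing. The members, the lists and the naming rule (all members, the 3 most correlated genes of each, the 2 largest called values of each list as examples, all called regulators) were chosen with earlier results of these data known. Alternatives tried are array scaling, no dye term, separate strain sets, robust variances, named genes only, 1 value per replicate, 1-step fits on arrays (also with slide as random block) and leaving out replicates. For galsicΔP, the loop took the place of the replicate in these settings.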

Additional observations from a re-analysis of the deposited data

Results flagged for a closer look

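The MMS effect on CIN5 was lower in rad53Δ than in wild type by -0.92 ± 0.15, a difference between strains by limma's test of that difference (adjusted p = 0.00061). It was called in all 11 other settings. The HU effect on CIN5 was lower in rad53Δ than in wild type by -0.61 ± 0.15 (adjusted p = 0.031), a call lost in each of the 4 fits without a replicate (-0.40 to -0.83). The MMS effect on ROX1 was higher in rad53Δ than in wild type by 0.71 ± 0.18 (adjusted p = 0.013), a call lost without wild-type replicate 1 (0.50, adjusted p = 0.063), without rad53Δ replicate 1 (0.75, adjusted p = 0.17) and without rad53Δ replicate 2 (0.67, adjusted p = 0.18). Within wild type, the MMS effect on CIN5 at 60 and 75 min exceeded that at 30 and 45 min by 0.46 ± 0.15 (adjusted p = 0.042), a call lost without replicate 1 (0.21, adjusted p = 0.69) and without replicate 2 (0.70, adjusted p = 0.069). Of 60 sets of pairs checked for a single far value, 0 held one.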

How the results depend on the processing

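No result reversed. Of 87 called values of members, 41 were called in every setting run for them. Leaving out a wild-type replicate gave 4 called members in HU, 7 to 8 in MMS, 0 to 3 in CPT, 22 to 23 over single times against 32, 5 each for MMS against HU, 7 each for MMS against CPT, 2 to 3 for HU against CPT and 0 to 1 for late against early effects. Leaving out a replicate of either strain gave 0 for the HU difference of rad53Δ from wild type and 1 to 2 for the MMS difference; leaving out a rad53Δ replicate gave 2 in rad53Δ MMS and 0 in HU. Leaving out a galsicΔP loop gave 1 to 3 for nrm1Δ and 0 for 100 against 40 min. With 1 value per replicate and agent and a replicate block, 3 members were called in HU against 6, 5 in MMS against HU, 1 in HU against CPT, 0 for the HU difference of rad53Δ, and the other counts stayed within 1.5 times; it was not run for single times and courses. Arrays scaled to equal spread gave 0 for the HU difference of rad53Δ, 1 for nrm1Δ, 2 for 40 against 0 min and 0 for 100 against 40 min. Each strain set alone gave 2 for late against early effects, 4 in rad53Δ HU, 1 for nrm1Δ and 0 for 100 against 40 min. The 1-step fits on arrays, with or without slide as a random block, gave 1 in CPT (YAP1), 4 for late against early effects, 3 in rad53Δ HU and 4 for 100 against 40 min. Adjusting over named genes only gave 2 for late against early effects. A fit without the second 0 min extract, chosen after seeing the data, gave 7 for 40 against 0 min, adding MSN2 (-0.48). The 40 against 0 min step could not be fitted without the first loop. The cause of these moves was not tested. The few arrays limit the precision, and what the signal over background adds is unknown.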
